A study of Mus musculus with 8 samples.

Results

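The genes that build and load major histocompatibility complex (MHC) molecules were followed in the head (caput) of the mouse epididymis, where sperm leaving the testis begin to mature. Members were all rows of the deposited gene table whose symbol starts with H2-, the mouse prefix for the MHC, together with 14 named genes of antigen processing, class I-like presentation and their regulation. The rule gave 58 of the 24059 gene symbols in the table. Of these, 11 had 0 reads in all 8 libraries, 21 had reads but too few to be tested, and 26 were tested.

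The libraries came from 4 Nell2-KO (genotype Nell2-/-) and 4 wild-type (WT) samples of C57BL/6N mice, all aged 14 weeks and with no treatment named. The labels do not say how the Nell2 allele was made, nor that each replicate came from a separate animal, so the p-values speak for the variation among these samples, which may be technical. RNA of the whole tissue was amplified and read as single 36-base reads. Levels are read counts scaled to a common library size by TMM (CPM), with means ± SD and n = 4 per group, and fold changes are edgeR's fitted log2 values for Nell2-KO over WT.

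MHC class I molecules sit on nearly all nucleated cells and consist of a heavy chain, such as those of H2-K1 and H2-D1, and the light chain beta-2 microglobulin. They display peptides that the proteasome cuts, the TAP transporter carries into the endoplasmic reticulum, and tapasin and related proteins help to load. MHC class II molecules are made mainly by dendritic cells, macrophages and B cells. They reach the endosome bound to the invariant chain (Cd74), whose remnant is exchanged for an antigen peptide with the help of H2-DM. In the epididymis, mononuclear phagocytes lie along the epithelium of the duct.

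Totals ran from 801112 counts in Nell2-KO replicate 1, over 1308439 to 6256204 in the other 3 Nell2-KO libraries, to 2073811 to 2517387 in WT. Nell2 had 0 reads in every library, which over the pooled libraries allows up to 0.211 CPM in Nell2-KO and 0.339 CPM in WT (3 counts, counting error only), so it did not check the genotype labels. The caput marker Gpx5 was at 83558 ± 12042 CPM in Nell2-KO and 69400 ± 4750 CPM in WT, and was not called (edgeR adjusted p = 0.362). Of the 7 caput epithelium markers listed, however, 4 were called lower (Adam7, Crisp1, Lcn8 and Cst8) and 1 higher (Lcn5) at an adjusted p under 0.05. This is 71.4%, against 15.0% of all genes tested. The list was chosen with earlier results of these data known, so this share is a description and not a test. Cst8, for example, was at 2.04 ± 2.47 CPM in Nell2-KO and 2330 ± 280 CPM in WT. Nell2-KO replicate 1 stood apart, with a gene share of its reads that was 0.496 times the average WT share, while the other Nell2-KO libraries had 1.02 to 1.03 times that share. WT replicate 2 held 7158 CPM of the nuclear RNA Malat1, while WT replicates 1, 3 and 4 held 985 to 1129 CPM. The members took 0.266% to 0.709% of the counts of a Nell2-KO library and 0.211% to 0.278% of those of a WT library, the highest share being that of Nell2-KO replicate 1.

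The largest fitted difference was that of H2-DMb2, which lies next to H2-DMb1 on chromosome 17, both encoding beta chains of H2-DM. H2-DMb2 (ENSMUSG00000037548.15) lies at 34143307 to 34151555 and H2-DMb1 (ENSMUSG00000079547.4) at 34153072 to 34160230 of mm10, both on the plus strand. Their coding sequences differ at 32 of 783 aligned bases, an identity of 95.9%. The following stretches, 72 bases from the same position of each coding sequence, are shown because the counts of the pair are read against each other below; they come from GENCODE M21 transcripts, and capitals mark the bases of H2-DMb2 that differ from H2-DMb1.
H2-DMb1: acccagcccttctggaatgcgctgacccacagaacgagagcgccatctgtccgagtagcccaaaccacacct
H2-DMb2: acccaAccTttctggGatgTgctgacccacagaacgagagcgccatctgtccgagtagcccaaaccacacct
The first part of this stretch can be told apart by a 36-base read, while the second part is identical in both genes. Over the whole coding sequence, 57.1% of the 36-base windows of H2-DMb2 also occur in that of H2-DMb1. Over all annotated transcripts, 66.6% of the windows of H2-DMb2 and 71.3% of those of H2-DMb1 occur in no other gene.

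The promoters of the pair are shown because the genes differed in the size of their response. The windows run from 250 bases before to 50 bases after the start in RefSeq on GRCm38.p6, at chr17:34152941-34153240 for H2-DMb1 and chr17:34144999-34145298 for H2-DMb2, both plus strand. Capitals mark the CCAAT motif, here read on the other strand as ATTGG, which is the core of the Y box of class II promoters and is bound by the factor NF-Y.
H2-DMb1: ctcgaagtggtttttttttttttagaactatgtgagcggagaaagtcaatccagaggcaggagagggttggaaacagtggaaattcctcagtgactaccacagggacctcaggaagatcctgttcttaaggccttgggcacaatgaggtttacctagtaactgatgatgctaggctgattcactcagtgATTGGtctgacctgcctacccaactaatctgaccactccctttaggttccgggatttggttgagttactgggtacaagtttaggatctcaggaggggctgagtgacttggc
H2-DMb2: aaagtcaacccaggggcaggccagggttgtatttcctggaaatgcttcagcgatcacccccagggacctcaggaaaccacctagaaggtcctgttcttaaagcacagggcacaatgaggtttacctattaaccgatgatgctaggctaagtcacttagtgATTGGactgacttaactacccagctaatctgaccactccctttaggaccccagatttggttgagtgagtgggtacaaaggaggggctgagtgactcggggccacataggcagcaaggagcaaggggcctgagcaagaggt
Each window holds the motif once, beginning at position -61 from the start for H2-DMb1 and -90 for H2-DMb2. The windows could be aligned over 247 bases with 84.2% identity, and their longest shared run is 23 bases. Searched on both strands, CCAAT occurs in 37.4% of all 32851 promoter windows. Among the 39 members with a promoter window, 32 hold it in at least 1 window. These matches describe letters in a window and were not tested as binding sites.

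H2-DMb2 fell 9.45-fold in Nell2-KO. Its levels were 0, 1.45, 3.05 and 2.16 CPM in Nell2-KO replicates 1 to 4, against 29.0, 20.1, 21.4 and 17.8 CPM in WT replicates 1 to 4. The groups did not overlap, and every WT library lay far above the highest Nell2-KO library. The log2 fold change was -3.24 ± 0.32 (SE, edgeR adjusted p = 2.2e-05), and it lay between -3.61 and -3.07 when any single library was left out. The Nell2-KO value rested on 34 reads over 4 libraries, against 198 reads in WT, and the 0 of Nell2-KO replicate 1 allows up to 4.22 CPM at its depth. Testing required about 4.70 CPM in at least 4 libraries, which H2-DMb2 reached in WT libraries alone.

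H2-DMb1 fell 1.78-fold. It was at 14.1, 12.4, 16.8 and 15.8 CPM in Nell2-KO, against 27.8, 26.4, 29.2 and 25.5 CPM in WT. Both groups were narrow and did not overlap. The log2 fold change was -0.83 ± 0.16 (SE, edgeR adjusted p = 0.0042). Within a library the ratio of the beta chain genes does not depend on scaling: there were 0, 11.8, 18.2 and 13.6 H2-DMb2 reads per 100 H2-DMb1 reads in Nell2-KO, against 104, 75.9, 73.3 and 69.6 in WT. The mean ratio was 10.9 ± 7.75 in Nell2-KO and 80.8 ± 15.8 in WT, a description of values with no test, since the pair was picked after its values were seen. No source used here gives how reads matching both genes were counted, so that reads of one may be counted in the other.

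H2-DMa (ENSMUSG00000037649.10, chromosome 17 at 34119541 to 34139101, plus strand) encodes the alpha chain that pairs with either beta chain. It fell 2.15-fold and was at 4.22, 8.73, 7.77 and 6.83 CPM in Nell2-KO, against 15.7, 22.0, 10.7 and 14.1 CPM in WT. The lowest WT library, replicate 3, was above the highest Nell2-KO library. The log2 fold change was -1.10 ± 0.26 (SE, edgeR adjusted p = 0.0131), and without Nell2-KO replicate 4 the call was lost by a narrow margin (adjusted p = 0.0505). Its exons overlap those of Brd2 on the opposite strand, which take up 9.01% of its 36-base windows. Brd2 was at 151 ± 14.2 CPM in Nell2-KO and 182 ± 26.6 CPM in WT and was not called (edgeR adjusted p = 0.291).

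**Figure D1:**
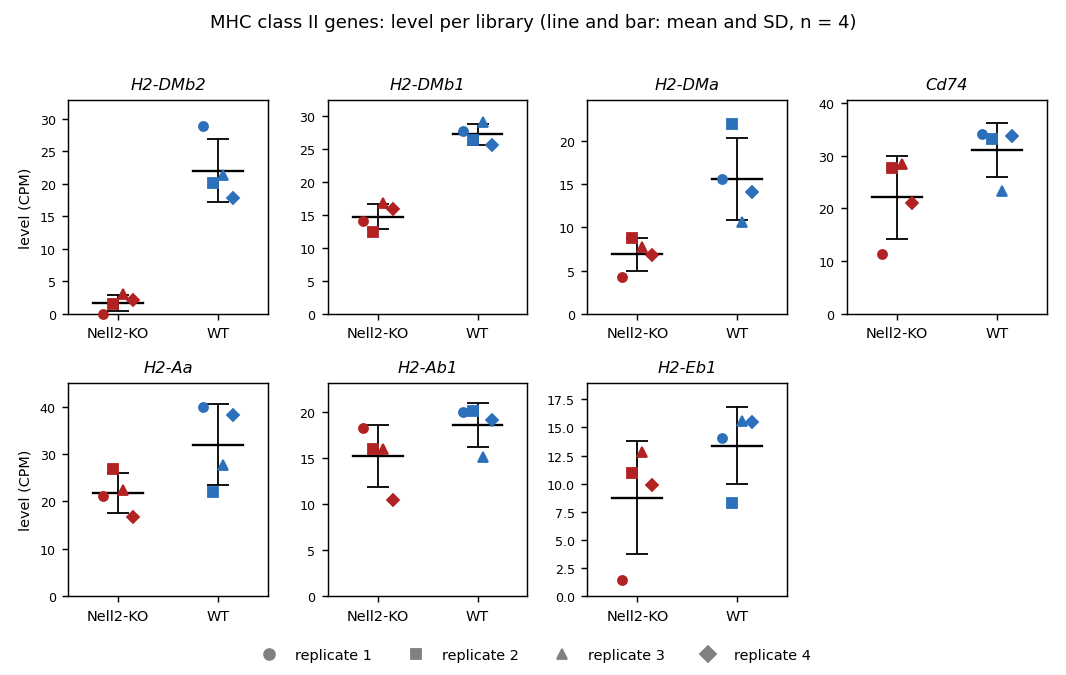
Level in CPM (vertical axis, from 0) of 7 MHC class II genes in each Nell2-KO and WT library, with mean and SD (n = 4 per group). The groups are separate for H2-DMb2, H2-DMb1 and H2-DMa, where Nell2-KO means were 1.66, 14.8 and 6.89 CPM, and overlap for Cd74, H2-Aa, H2-Ab1 and H2-Eb1.

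The classical class II chains and their chaperone did not pass the test, although each fitted value was below 0. H2-Aa, the alpha chain of I-A, was at 21.1, 26.9, 22.4 and 16.7 CPM in Nell2-KO, against 39.9, 22.0, 27.7 and 38.3 CPM in WT. WT replicate 2 lay within the Nell2-KO range, and the log2 fold change was -0.60 ± 0.23 (SE, edgeR adjusted p = 0.109). Without that library H2-Aa was called lower at -0.73 (adjusted p = 0.0482), and it was also called at -0.62 without Nell2-KO replicate 1 (adjusted p = 0.0450). It weakened to -0.45 without Nell2-KO replicate 4 (edgeR adjusted p = 0.286) and to -0.46 without WT replicate 1 (adjusted p = 0.311). H2-Ab1, the beta chain of I-A, was at 18.3, 16.0, 16.0 and 10.4 CPM in Nell2-KO, against 20.0, 20.1, 15.1 and 19.2 CPM in WT, and its log2 fold change was -0.37 ± 0.21 (SE, edgeR adjusted p = 0.303). The 2 groups overlapped through WT replicate 3, and the value was -0.18 without Nell2-KO replicate 4.

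H2-Eb1, the beta chain of I-E, was at 1.41, 10.9, 12.8 and 9.89 CPM in Nell2-KO, against 14.1, 8.32, 15.6 and 15.5 CPM in WT. Nell2-KO replicate 1 held 1 read of it, and the fitted value of -0.39 ± 0.32 (log2, SE, edgeR adjusted p = 0.496) became -0.25 without that library and -0.61 without Nell2-KO replicate 3. Cd74, the invariant chain (ENSMUSG00000024610.15, chromosome 18 at 60803848 to 60812652, plus strand), was at 11.3, 27.6, 28.5 and 21.0 CPM in Nell2-KO. In WT it was at 34.1, 33.3, 23.3 and 33.7 CPM, and its log2 fold change was -0.41 ± 0.23 (SE, edgeR adjusted p = 0.289). WT replicate 3 lay within the range of the Nell2-KO libraries. The other class II rows were near the limit of detection. H2-Ob, a chain of the DM inhibitor H2-O, had 6 reads in Nell2-KO and 11 in WT, H2-Oa and H2-Eb2 had 1 read each, in Nell2-KO, and H2-Ea-ps had 0 reads.

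Summed over the 11 class II rows, the level was 70.4, 105, 108 and 83.1 CPM in Nell2-KO, against 184, 153, 143 and 165 CPM in WT. The 3 H2-DM genes gave 18.3 to 27.6 CPM of this sum in Nell2-KO and 57.5 to 72.5 CPM in WT. Without them, the other 8 rows summed to 52.1 to 82.2 CPM in Nell2-KO and to 81.6 to 111 CPM in WT, so that the ranges met. Of the 7 class II genes tested, 3 were called lower and 0 higher, with a median log2 fold change of -0.60 against 0.03 over all genes tested. Over all 11062 genes tested, 15.0% were called, 6.24% as higher and 8.71% as lower.

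Markers of cells that carry class II molecules were counted beside these genes. Of 13 macrophage and dendritic cell markers tested from a list of 20, 12 had fitted values below 0 and 2 were called lower (Lyz2 and Fcer1g), with a median log2 fold change of -0.40. The marker above 0 was Ptprc, at 0.19. The share called, 15.4% and all lower, stood beside 8.71% of all genes called lower and 15.0% called in either direction. This list, too, was chosen with earlier results of these data known, so the share is a description. Of these markers, 0 were called without any 1 of the 4 WT libraries or without Nell2-KO replicate 4. Without Nell2-KO replicate 1, 3 were called lower, and without both that library and WT replicate 2, 2 were. In these 2 fits 13.7% and 14.9% of all genes were called lower. Their summed level ranged from 154 to 212 CPM in Nell2-KO and from 222 to 270 CPM in WT. The macrophage genes Csf1r (15.7 ± 8.01 CPM in Nell2-KO, 23.4 ± 5.84 CPM in WT) and Emr1 (10.6 ± 2.59 CPM in Nell2-KO, 13.3 ± 3.32 CPM in WT) did not pass the test. The dendritic cell markers Flt3, Xcr1 and Clec9a were under 2 CPM on average in both groups. Of the B cell markers, Ms4a1 and Pax5 had 0 reads in all 8 libraries, and the list of 6 summed to 0 to 0.762 CPM in Nell2-KO and 0.392 to 0.979 CPM in WT. The part of these cells in the lower H2-DM and class II levels was not tested, and in whole tissue fewer cells of a type and less RNA per cell cannot be told apart.

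Of the endothelial markers, whose cells carry class I and can carry class II molecules, 4 of 8 were called lower (Pecam1, Kdr, Emcn and Plvap) and 0 higher. That is 50% called lower, against 8.71% of all genes tested, and here too fewer cells and less RNA per cell cannot be told apart. The list was chosen with earlier results of these data known, so this share is a description and not a test. The endothelial markers summed to 48.9 to 70.4 CPM in Nell2-KO and 103 to 139 CPM in WT. The 10 T and NK cell markers summed to 9.86 to 13.8 CPM in Nell2-KO and 309 to 364 CPM in WT. Klrb1c, listed as an NK cell marker, made up most of the WT sum. It was at 7.77 ± 2.0 CPM in Nell2-KO and 333 ± 23.9 CPM in WT. Klrb1c was called lower (log2 fold change -5.34 ± 0.19, SE, edgeR adjusted p = 6.9e-09). The other 9 markers were too low to be tested, and summed to 3.50 to 5.09 CPM in Nell2-KO and 1.94 to 3.91 CPM in WT.

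The class I heavy chains were higher on average in Nell2-KO, but not called in the fit of all 8 libraries. H2-K1 (ENSMUSG00000061232.16, chromosome 17 at 33996017 to 34000347, minus strand) was at 138, 261, 263 and 392 CPM in Nell2-KO, against 215, 172, 208 and 223 CPM in WT. Nell2-KO replicate 1 was the lowest of all 8 libraries and the other 3 Nell2-KO libraries were above every WT library. The log2 fold change was 0.38 ± 0.25 (SE, edgeR adjusted p = 0.359) and without Nell2-KO replicate 1 it was 0.58 ± 0.14 (adjusted p = 0.0080). Without Nell2-KO replicate 4 it was 0.13 (adjusted p = 0.772), and without both Nell2-KO replicate 1 and WT replicate 2 H2-K1 was not called (adjusted p = 0.0748). H2-D1 (ENSMUSG00000073411.11, chromosome 17 at 35262730 to 35267499, plus strand) was at 95.8, 129, 130 and 158 CPM in Nell2-KO, against 99.1, 61.2, 101 and 100 CPM in WT. Its log2 fold change was 0.52 ± 0.19 (SE, edgeR adjusted p = 0.0987), and without Nell2-KO replicate 1 it was 0.62 ± 0.15 (adjusted p = 0.0073). The value was 0.41 without Nell2-KO replicate 4 (edgeR adjusted p = 0.252) and 0.38 without WT replicate 2 (adjusted p = 0.200). Nell2-KO replicate 1 again lay among the WT values while the other 3 lay above them.

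The sequences of class I genes are close, and the stretches that follow show how far a 36-base read can separate them. They are 72 aligned coding bases of GENCODE M21 transcripts, and capitals mark the bases that differ from H2-K1.
H2-K1: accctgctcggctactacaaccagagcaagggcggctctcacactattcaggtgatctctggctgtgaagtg
H2-D1: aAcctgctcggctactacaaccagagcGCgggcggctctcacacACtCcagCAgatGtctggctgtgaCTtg
H2-Q6: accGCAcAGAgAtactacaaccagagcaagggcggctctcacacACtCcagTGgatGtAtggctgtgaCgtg
H2-Q7: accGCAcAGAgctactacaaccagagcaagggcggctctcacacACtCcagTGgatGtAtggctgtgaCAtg
H2-Q10: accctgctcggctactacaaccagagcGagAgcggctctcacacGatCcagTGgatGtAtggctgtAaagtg
Over the aligned coding sequence, H2-K1 and H2-D1 are 91.4% identical and H2-Q6 and H2-Q7 are 95.4% identical. Of the 36-base windows of H2-K1, 82.4% occur in no other gene, and of those of H2-D1, 78.2%. The share is 54.0% for H2-Q6 and 65.2% for H2-Q7, and both of these rows, with H2-Q8 and H2-Q9, had 0 reads in all libraries. The same limit on reads with several matches holds here, so a row at 0 says nothing firm about the gene.

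**Figure D2:**
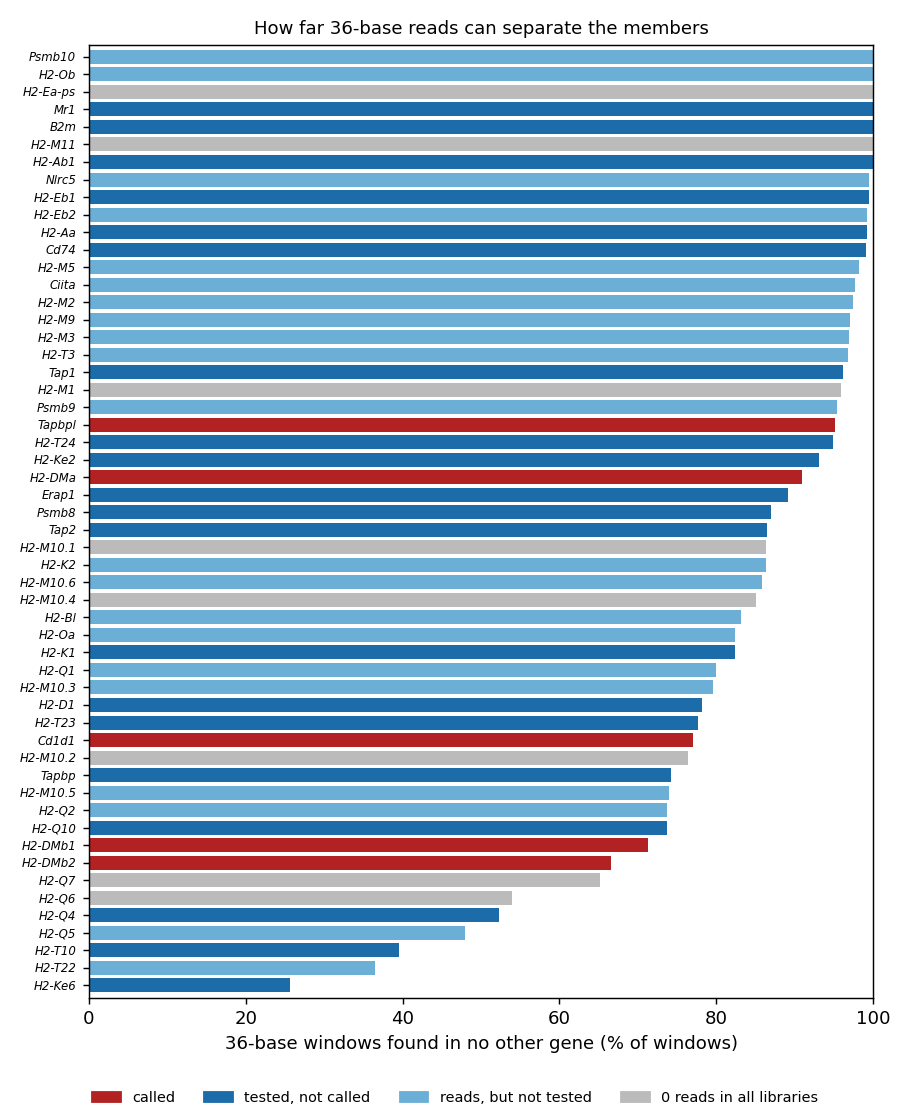
Share of the 36-base windows of each member's GENCODE M21 transcripts that occur in no other gene's transcripts (horizontal axis, percent), for the 54 members found in that annotation, coloured by whether the row was called, tested, had reads or had 0 reads. H2-Ke6, H2-T22, H2-T10 and H2-Q5 lie under 50%, H2-DMb2 is at 66.6% and B2m at 100%.

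A sum over class I rows does not depend on how reads were shared out among them. It still depends on reads that were lost or that match genes outside these rows. For example, H2-Q4 shares 16.4% of its windows with Gm11131. Over the 31 H2 rows of class I, the level was 287, 457, 469 and 635 CPM in Nell2-KO, against 386, 299, 387 and 410 CPM in WT. The lowest of the 8 libraries was Nell2-KO replicate 1, and the other 3 Nell2-KO libraries were higher than each WT library. H2-L had 256 reads in Nell2-KO and 110 in WT, although C57BL/6 mice carry no H2-L gene, and for each 100 reads of H2-D1 it had 2.94 to 15.8 reads in Nell2-KO and 10.6 to 15.4 in WT. H2-L was not found in GENCODE M21, and the source of its reads was not tested.

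B2m (ENSMUSG00000060802.8, chromosome 2 at 122147686 to 122153083, plus strand), the light chain shared by class I molecules, Cd1d1 and Mr1, was the most abundant member. It was at 7291, 2052, 2023 and 1562 CPM in Nell2-KO, against 1367, 2128, 1332 and 1480 CPM in WT. Nell2-KO replicate 1 was more than any other library and WT replicate 2 was the highest of WT. The fitted log2 value of 1.03 ± 0.43 (SE, edgeR adjusted p = 0.143) was 0.25 without Nell2-KO replicate 1 (adjusted p = 0.298). Without both Nell2-KO replicate 1 and WT replicate 2 it was 0.43 ± 0.10 (adjusted p = 0.0021), and the remaining groups did not overlap.

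Of the 28 class Ib rows, 18 had reads and 5 were tested, and none of these 5 was called by edgeR at an adjusted p under 0.05. H2-Q4 was at 14.1, 9.45, 14.0 and 14.7 CPM in Nell2-KO, against 9.40, 7.34, 9.72 and 8.67 CPM in WT, with a fitted log2 value of 0.61 ± 0.21 (SE, edgeR adjusted p = 0.0810, unadjusted p = 0.0147). The highest WT library lay above the lowest Nell2-KO library. H2-Q4 was called without Nell2-KO replicate 1 (adjusted p = 0.0484) or 2 (adjusted p = 0.0467), and not without both Nell2-KO replicate 1 and WT replicate 2 (adjusted p = 0.0788). Without Nell2-KO replicate 4 its value was 0.53 (edgeR adjusted p = 0.212). Of its windows, 52.3% are its own, and its exons overlap Gm11131 on the opposite strand. H2-T23, which encodes Qa-1, the ligand of the inhibitory NKG2A receptor, was at 4.22, 9.45, 18.7 and 11.0 CPM in Nell2-KO, against 20.8, 12.2, 20.4 and 25.5 CPM in WT (log2 fold change -0.63 ± 0.31, SE, edgeR adjusted p = 0.225). The ranges of H2-T23 overlapped through WT replicate 2, and without Nell2-KO replicate 3 its value was -1.07 (adjusted p = 0.0607). Without WT replicate 4 it was -0.49 (edgeR adjusted p = 0.470). H2-T10 had a fitted value of -0.51, or -0.34 without WT replicate 4. H2-T24 had -0.62, or -0.31 without WT replicate 2, and H2-Q10 had 0.36, or 0.20 without WT replicate 3. The 13 class Ib rows with reads that were not tested had at most 55 reads over the 4 Nell2-KO libraries and at most 23 over the 4 WT libraries.

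**Figure D3:**
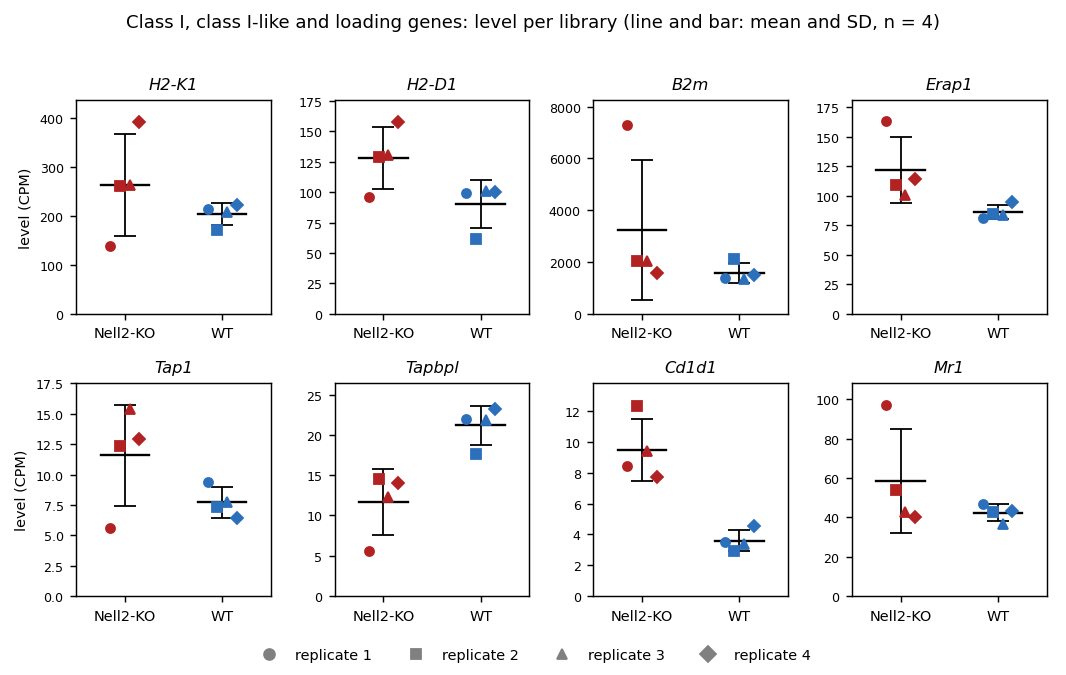
Level in CPM (vertical axis, from 0) of class I, class I-like and loading genes in each Nell2-KO and WT library, with mean and SD (n = 4 per group). Cd1d1 and Erap1 lie above WT in all 4 Nell2-KO libraries and Tapbpl below it, while Nell2-KO replicate 1 stands at the low end for H2-K1, H2-D1 and Tap1 and at 7291 CPM for B2m.

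Cd1d1 was the member that rose. It encodes the class I-like molecule that shows lipids to NKT cells (ENSMUSG00000028076.12, chromosome 3 at 86995834 to 86999441, minus strand). Its levels were 8.45, 12.4, 9.44 and 7.73 CPM in Nell2-KO, against 3.52, 2.94, 3.40 and 4.56 CPM in WT, without overlap. The rise was 2.53-fold, or 1.34 ± 0.26 on the log2 scale (SE, edgeR adjusted p = 0.0044), and its call was kept when any single library was left out. With limma on log2 of RPKM plus 1 or plus 0.1 it was not called, at 0.77 (adjusted p = 0.208) and 1.11 (adjusted p = 0.266). It rested on 128 reads in Nell2-KO and 32 in WT, and Cd1d1 passed the expression filter through its Nell2-KO libraries alone. Its neighbour Cd1d2, which shares 22.5% of its windows, was at 0.543 ± 0.643 CPM in Nell2-KO and 0.342 ± 0.232 CPM in WT. Mr1, which shows vitamin B metabolites to MAIT cells, was at 97.2, 53.8, 42.6 and 40.1 CPM in Nell2-KO, against 47.0, 42.6, 36.4 and 43.3 CPM in WT. The Nell2-KO mean of Mr1 rested on replicate 1, and its fitted log2 value of 0.36 ± 0.25 (SE, edgeR adjusted p = 0.416) was 0.06 without that library.

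Genes of peptide supply and loading did not move together. Tapbpl, which encodes the tapasin-related peptide editor TAPBPR (ENSMUSG00000038213.7, chromosome 6 at 125223933 to 125231860, minus strand), fell 1.68-fold. It was at 5.63, 14.5, 12.3 and 14.0 CPM in Nell2-KO, against 21.9, 17.6, 21.9 and 23.3 CPM in WT, without overlap. Its log2 fold change was -0.75 ± 0.21 (SE, edgeR adjusted p = 0.0339). That call ended without any 1 of 6 single libraries, namely Nell2-KO replicate 2, 3 or 4 or WT replicate 1, 3 or 4 (adjusted p of up to 0.114), and held without Nell2-KO replicate 1, at -0.66, or WT replicate 2, at -0.82.

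Tap1, a subunit of the peptide transporter, was at 5.63, 12.4, 15.4 and 12.9 CPM in Nell2-KO, against 9.40, 7.34, 7.78 and 6.38 CPM in WT. Nell2-KO replicate 1 was the lowest library, with 4 reads, and the other 3 lay above WT. The fitted log2 value of 0.73 ± 0.25 (SE, edgeR adjusted p = 0.0819) became 0.83 without that library (adjusted p = 0.0090). Without Nell2-KO replicate 3 it was 0.56 (edgeR adjusted p = 0.284). Tap2, the other subunit, was at 1.41, 7.27, 6.85 and 6.11 CPM in Nell2-KO, against 10.2, 9.30, 7.29 and 8.67 CPM in WT. Nell2-KO replicate 1 held 1 read of Tap2. The Tap2 groups narrowly did not overlap, but its log2 fold change of -0.53 ± 0.27 (SE) did not pass the test (edgeR adjusted p = 0.248). Erap1, the aminopeptidase that trims peptides in the endoplasmic reticulum, was at 163, 109, 101 and 114 CPM in Nell2-KO, against 81.1, 84.7, 84.1 and 94.9 CPM in WT. Its groups did not overlap, and its log2 fold change was 0.47 ± 0.16 (SE, edgeR adjusted p = 0.0764), or 0.32 without Nell2-KO replicate 1 (adjusted p = 0.0352). Without WT replicate 1 the value was 0.45 (edgeR adjusted p = 0.182). Erap1 shares exon sequence with Cast on the opposite strand, which was called lower, at 41.9 ± 5.05 CPM in Nell2-KO and 60.7 ± 5.64 CPM in WT (edgeR adjusted p = 0.0290).

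Tapbp, which encodes tapasin, was at 61.2 ± 15.4 CPM in Nell2-KO and 58.5 ± 9.15 CPM in WT (log2 fold change 0.11 ± 0.19, SE, edgeR adjusted p = 0.778). The immunoproteasome subunit gene Psmb8 was at 2.82, 11.6, 7.01 and 6.47 CPM in Nell2-KO, against 7.44, 5.38, 7.78 and 4.56 CPM in WT, and its groups overlapped fully (log2 fold change 0.18 ± 0.31, SE, edgeR adjusted p = 0.776). Psmb9 was at 4.22, 0.727, 3.35 and 3.42 CPM in Nell2-KO, against 2.35, 1.47, 1.46 and 2.74 CPM in WT. Psmb9 and Psmb10, the other immunoproteasome subunits, were too low to be tested, Psmb10 having 61 reads in Nell2-KO and 24 in WT. Psmb9 overlaps Tap1 in the annotation. The 3 remaining H2 symbols, H2-Ke2, H2-Ke6 and H2-K2, were not called or not tested. Neither transactivator was tested. Nlrc5, which drives class I genes, was at 5.63, 5.09, 2.89 and 3.60 CPM in Nell2-KO, against 1.17, 2.45, 5.35 and 1.82 CPM in WT. Ciita, which drives class II genes, was at 0, 1.45, 0.305 and 0.180 CPM in Nell2-KO, against 0.392, 1.47, 0 and 0.456 CPM in WT, so that a change in it was not detectable at this depth.

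**Figure D4:**
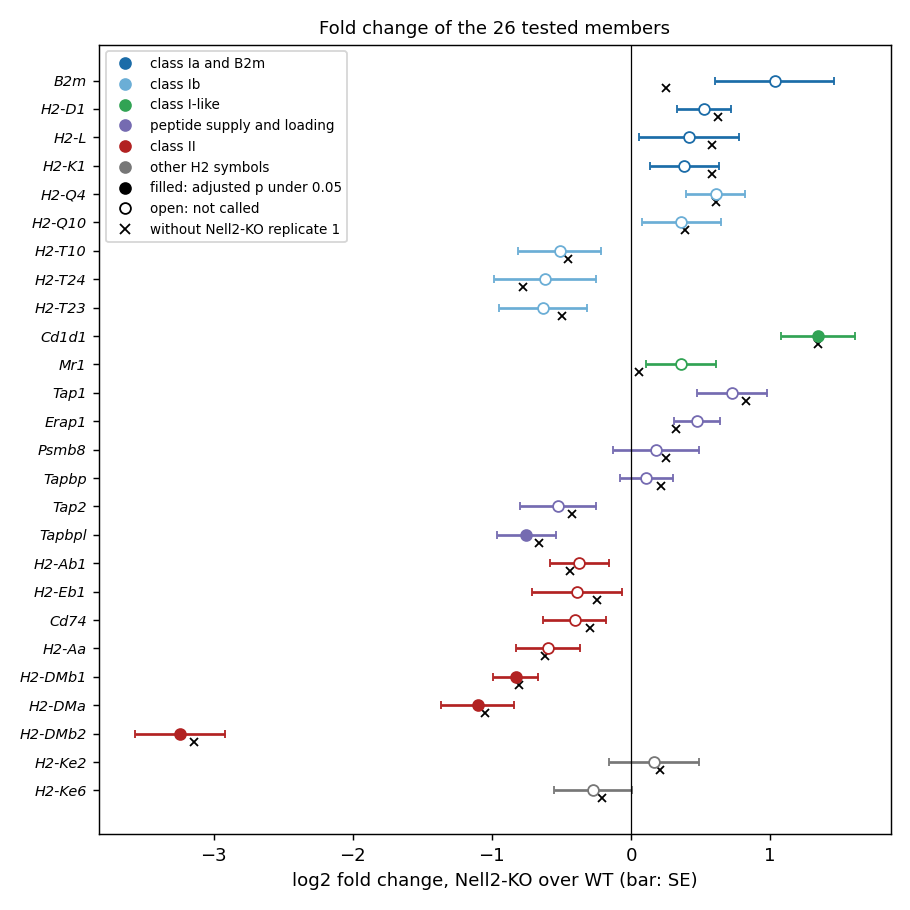
Log2 fold change of Nell2-KO over WT (horizontal axis, with SE) of the 26 tested members, grouped by role; filled symbols were called at an adjusted p under 0.05, and crosses give the value without Nell2-KO replicate 1. H2-DMb2 lies at -3.24 and Cd1d1 at 1.34, all 7 class II genes lie below 0, and B2m moves to 0.25 without that library.

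Over all roles, 1 member was called higher (Cd1d1) and 4 lower (H2-DMb2, H2-DMb1, H2-DMa and Tapbpl), which is 5 of 26 or 19.2%. This share lay near the 15.0% of all genes tested (6.24% higher and 8.71% lower). Groups did not overlap for 7 of the 26 members (26.9%), 2 with Nell2-KO above and 5 with Nell2-KO below, against 22.1% of all genes tested (9.50% above and 12.6% below). The median log2 fold change of the tested members was -0.08, with 13 above and 13 below 0. The expression filter was passed in libraries of both groups by 24 of the 26. Without Nell2-KO replicate 1, members called numbered 6 higher and 5 lower, among 11.1% of all genes called higher and 13.7% called lower. The 5 calls were kept there, and H2-K1, H2-D1, H2-Q4, Tap1 and Erap1 were added as higher and H2-Aa as lower. Without it and WT replicate 2, 5 members were higher and 6 lower, among 12.2% and 14.9% of all genes, and the additions were B2m, H2-D1, Tap1 and Erap1 as higher and H2-Aa and H2-T23 as lower.

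Levels between genes can be compared only per length, for which the authors' deposited RPKM were used. By the median over the WT libraries, B2m was first at 1070 RPKM, then H2-K1 at 82.3, H2-D1 at 36.8, H2-Aa at 19.7 and H2-DMb2 at 15.9 RPKM. Cd74, Tapbp, H2-DMb1 and Erap1 followed at 13.2 to 14.1 RPKM, and the WT ranges of these 4 overlapped each other and those of H2-DMb2 and H2-Aa. In Nell2-KO the median of H2-DMb2 was 1.51 RPKM and that of H2-DMb1 was 7.20 RPKM, while B2m, H2-K1 and H2-D1 were again the first 3, at 1577, 106 and 49.5 RPKM. These medians include Nell2-KO replicate 1, whose RPKM summed to 130913, against 276617 to 289573 in the other Nell2-KO libraries.

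Among other genes of the pathway, 29 of 30 were tested, and 6.90% of them were called, against 15.0% of all genes tested. The calls were 1 higher and 1 lower. Both encode lysosomal cysteine proteases that cut the invariant chain. Ctsl, cathepsin L, rose 2.43-fold and was at 1790 ± 534 CPM in Nell2-KO and 735 ± 20.8 CPM in WT (log2 fold change 1.28 ± 0.20, SE, edgeR adjusted p = 0.00075). Ctss, cathepsin S, fell by 0.57 ± 0.16 on the log2 scale (SE, edgeR adjusted p = 0.0321) and was at 42.2 ± 8.50 CPM in Nell2-KO and 60.5 ± 3.67 CPM in WT. The call of Ctss ended when any single library other than Nell2-KO replicate 1 was left out, and was kept without that one (adjusted p = 0.00087). Irf1, an interferon-induced transcription factor, was not called and was at 18.3 ± 2.43 CPM in Nell2-KO and 13.9 ± 3.68 CPM in WT (edgeR adjusted p = 0.218). Rfx5, Rfxank, Rfxap, Nfya, Nfyb, Nfyc and Creb1, which encode factors that bind class II promoters, were not called, with log2 fold changes of -0.20 to 0.24. The chaperones of class I assembly Calr, Canx and Pdia3 were not called either, at 0.02 to 0.31. Without Nell2-KO replicate 1 the pathway list held 2 higher and 3 lower calls, Ifngr2 as higher and Jak1 and Sppl2a as lower being added. Over all genes tested in that fit, 11.1% were called higher and 13.7% lower.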

How the data were processed

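Polyadenylated RNA of the caput epididymis was measured in 4 Nell2-KO and 4 WT libraries. The authors deposited 1 table of raw read counts per gene symbol, per the file headers, and beside them RPKM values (read counts divided by gene length and by library total) that the authors computed. Tools listed in the submitters' processing notes are Bowtie2 2.2.0, FastQC 0.11.2 and CASAVA 1.8.2, with mm10 as the build. No source used here gives the counter, the gene models, the strand option or the treatment of reads with several matches. Such reads can be lost or misassigned among near-identical MHC genes.

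The test on the counts was that of edgeR 4.0.16 under R 4.3.3 (TMM scaling, filterByExpr, robust quasi-likelihood F test), and p-values were adjusted by Benjamini-Hochberg over all 11062 genes tested. Calls were made below an adjusted p of 0.05. The tests were tried on simulated data. Alternatives used RLE scaling, DESeq2 1.42.0, no expression filter, each library left out, 2 libraries left out together, the replicate number as a block, and limma 3.58.1 on log2 of RPKM plus 1 or plus 0.1 for genes of at least 1 RPKM in 4 libraries. Of the 58 members, 54 were found in GENCODE M21, 1 of them by a synonym, and each 36-base window of their transcripts was looked up in the transcripts of all other genes. Promoters came from RefSeq.

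The members, gene lists and marker lists were chosen with earlier results of these data known. Members given library by library were a set of main genes of each role, all called members, and others added after their values were seen (H2-Q4, H2-T23, Tap2 and Erap1). No pair of libraries agreed within sampling noise: the chi-square per degree of freedom between libraries of a group was 1.27 or more.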

Additional observations from a re-analysis of the deposited data

Results flagged for a closer look

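The 22 members given library by library made 44 groups of 4 libraries. In 4 of these groups, 1 library lay far from the other 3 relative to the range of its group. For independent groups chance gives about 1 in 20. The members share the same 8 libraries, and some, H2-Q4 among them, were added after their values were seen. The count is therefore a description and not a test. B2m was at 7291 CPM in Nell2-KO replicate 1, the highest of its group. H2-D1 was at 61.2 CPM in WT replicate 2 and Cd74 at 23.3 CPM in WT replicate 3, each the lowest of its group, as was H2-Q4 at 9.45 CPM in Nell2-KO replicate 2. Nell2-KO replicate 1 is also the library with the lowest total and the lowest share of reads in gene counts, and WT replicate 2 is the one with the highest Malat1 level. The part of these properties in the B2m and H2-D1 values was not tested.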

How the results depend on the processing

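RLE scaling, DESeq2 and the absence of an expression filter each gave 1 member higher and 4 lower, and the same 5 members. Leaving out 1 library at a time gave 1 to 6 members higher and 2 to 5 lower, 443 to 1249 genes higher and 748 to 1541 lower, and 1 to 2 pathway genes higher and 0 to 3 lower. Without both Nell2-KO replicate 1 and WT replicate 2 there were 5 members, 1391 genes and 3 pathway genes higher, and 1694 genes and 4 pathway genes lower. The replicate numbers are not stated to pair the samples. Deviations of libraries with the same number correlated at -0.28, -0.17, 0.17 and 0.17, and no Nell2-KO library correlated best with its own number. With 4 libraries per group, of which Nell2-KO replicate 1 and WT replicate 2 stood apart, these values cannot exclude pairs. With the replicate number as a block, 436 genes were higher and 748 lower, 1 member was higher and 3 lower (Tapbpl was not called), and 0 pathway genes were lower. limma on RPKM, which scales by library total without a correction such as TMM and moved the median of all genes to -0.16 and -0.22, gave 58 and 44 genes higher and 492 and 403 lower with pseudocounts of 1 and 0.1. It called 0 members higher and 1 lower under both, with H2-DMb2 kept and Cd1d1, H2-DMb1, H2-DMa and Tapbpl lost. It called 0 pathway genes lower under both, and 0 higher with a pseudocount of 1. Psmb8 turned to -0.045 and -0.17 in these fits. The RPKM of Nell2-KO replicate 1 summed to 130913, against 276617 to 289573 in the other Nell2-KO libraries. In that library Psmb8 was at 0.626 RPKM and 2.82 CPM, and Cd1d1 at 1.25 RPKM and 8.45 CPM. The part of this lower RPKM scale in the sign of Psmb8 and in the lost calls was not tested. The class I sum averaged 462 CPM in Nell2-KO and 369 CPM in WT under RLE. Depth limits the low members: 3 counts are worth 0.457 to 4.22 CPM in a library.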
